A study of Mus musculus with 6 samples.

Results

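Polycomb repressive complex 1 (PRC1) was followed through 9 of its genes, Cbx2, Cbx6, Cbx7, Cbx8, Bmi1, Pcgf2, Ring1, Rnf2 and Phc1, in neural progenitor cells (NPCs) with and without the Y-box protein gene Ybx1. The genes were chosen by name, as readers of H3K27me3 and ligases for ubiquitin on histone H2A, and all 9 were among the 51733 gene symbols of the count tables. Of these, 8 had a mean FPKM (counts per kilobase of exon and per library total) above 1 in either genotype and were tested among 21330 genes. Cbx7 was below that filter.

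RNA was measured in Sox2-positive cells sorted by fluorescence from E13.5 neural tubes of mice. There were 3 wildtype sibling controls (libraries A to C) and 3 Ybx1-KO samples (libraries D to F). The Ybx1-KO embryos were homozygous for the Ybx1tm1Ley allele, which all cells of the embryo carry, and both genotypes carried the Sox2-eGFP reporter used for the sort, which is an allele of Sox2. Embryos of both sexes were used. The labels do not say whether each library came from 1 embryo, and the first title numbers, which A shares with B and D with E, are not explained, so p-values measure the spread between these libraries, part of which may be technical.

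PRC1 places ubiquitin on lysine residues of histone H2A. Its catalytic core joins a RING protein, Ring1 or Rnf2 (RING1B), to a PCGF protein, such as Bmi1 (PCGF4) or Pcgf2 (MEL18). In canonical PRC1 a chromobox protein of the Cbx2, Cbx6, Cbx7 and Cbx8 group binds H3K27me3, the mark laid down by PRC2, and a polyhomeotic protein such as Phc1 links complexes to each other. Variant PRC1 complexes carry Rybp or Yaf2 in place of the chromobox protein. In neural stem cells Bmi1 is best known for keeping the Cdkn2a locus silent and so for sustaining self-renewal.

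Depth on genes ran from 4743279 to 23883542 counts per library, with the 3 Ybx1-KO libraries below the 3 controls, and 3 counts in a library, the limit for a gene with no count, stood for 0.126 to 0.632 CPM (counts scaled to a common library total, counting error only). Library F stood apart, with 7.22% of its read pairs on genes against 18.01 to 24.7% in the other libraries, and 4691 CPM against 25.5 to 98.3 CPM on 1944 receptor genes of smell, taste and the vomeronasal organ. The deleted gene, Ybx1, had 238.5, 531 and 306 CPM after TMM scaling in the controls and 126, 55.3 and 9.66 CPM in Ybx1-KO, so its transcript was lower in all 3 but still counted. In edgeR the log2 fold change of Ybx1 was -2.49 (SE 0.675, adjusted p = 0.301), so the deleted gene itself did not reach an adjusted p of 0.05. Sox2 was present in every library at 17.5 to 50.6 TMM CPM, and Nes, another progenitor marker, ran from 53.4 to 131 TMM CPM in control and from 168 to 287 in Ybx1-KO, without overlap (log2 fold change 1.44, unadjusted p = 0.00593). Summed markers of NPCs ran from 1660 to 1851 TMM CPM in control and from 1375 to 2412 in Ybx1-KO, those of neurons from 3453 to 5515 and from 1940 to 4804, and those of cycling cells from 750.3 to 1143 and from 960.3 to 1196. The list whose summed level separated the genotypes was mesenchyme and meninges, at 138 to 888 TMM CPM in control with the highest value in library A and 79.9 to 134 in Ybx1-KO, where 0 of 7 tested genes had a positive log2 fold change and none of the 8 listed was at 0 in a library. Erythroid markers summed to 480 to 1170 and 164 to 953 TMM CPM, endothelial markers to 20.97 to 41.6 and 11.5 to 53.4, and microglia markers to 9.08 to 32.04 and 3.40 to 22.3, with Tie1, Aif1, C1qa and C1qb at 0 counts in library D and C1qb also in E. Gene by gene, 7 of 10 NPC markers had a positive log2 fold change, 5 of them with an unadjusted p below 0.05 (Nes, Hes1, Hes5, Msi1 and Notch1) and 2 without overlap (Nes and Hes5). Of the 10 cycling markers 9 were positive. Mcm2 and Birc5 had an unadjusted p below 0.05, and 3 were without overlap (Mcm2, Aurkb and Birc5). Of the 12 neuron markers 8 were negative and 4 positive. Snap25 (unadjusted p = 0.00558 in edgeR) and Syt1 were lower in Ybx1-KO without overlap. Nefm (log2 fold change 1.51, unadjusted p = 0.0245) and Nefl (1.11) were higher. With scaling by total counts alone Birc5 and Syt1 overlapped, while Hes1, Msi1 and Notch1 became higher and Map2 lower in Ybx1-KO without overlap. Under that scaling 5.87% of all tested genes were higher and 5.26% lower without overlap. With TMM, 4.99% of all tested genes were higher and 8.16% lower without overlap, and 6.96% higher and 4.26% lower at an unadjusted p below 0.05. The part of these lists, of depth and of library F in the PRC1 values was not tested, apart from the values without F given below.

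Across the 8 tested members, 4 log2 fold changes (Ybx1-KO over control) were positive and 4 negative. The chromobox genes Cbx2, Cbx6 and Cbx8 and the RING gene Ring1 were on the positive side, and the PCGF genes Bmi1 and Pcgf2, the RING gene Rnf2 and Phc1 on the negative side. None passed both an adjusted p of 0.05 and a 1.5-fold change, the rule for a call, in edgeR's quasi-likelihood test (0 of 8), where 0.0% of all tested genes were called. The deleted gene Ybx1 was among those not called. At an unadjusted p below 0.05, 0 members were higher and 1 member, Bmi1, was lower in Ybx1-KO, against 6.96% and 4.26% of all tested genes. Bmi1 was also the 1 member under that limit with limma-voom (unadjusted p = 0.0368) and with DESeq2 (unadjusted p = 0.0205), and both tools called 0 members. The groups did not overlap in 1 member that was higher in Ybx1-KO, Cbx8, and in 1 that was lower, Bmi1, against 4.99% and 8.16% of all tested genes. With scaling by total counts alone in place of TMM, 3 members were higher without overlap (Cbx2, Cbx8 and Ring1) and 1 lower (Bmi1), against 5.87% and 5.26% of all tested genes. The median log2 fold change was 0.22 over the tested members, 0.31 over all tested genes and 0.051 over the 13694 protein-coding genes among them. The median of all tested genes moves with the filter, which 7234 genes passed through Ybx1-KO alone and 951 through control alone, and it was 0.075 with a filter of CPM above 1 in 3 libraries.

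**Figure D1:**
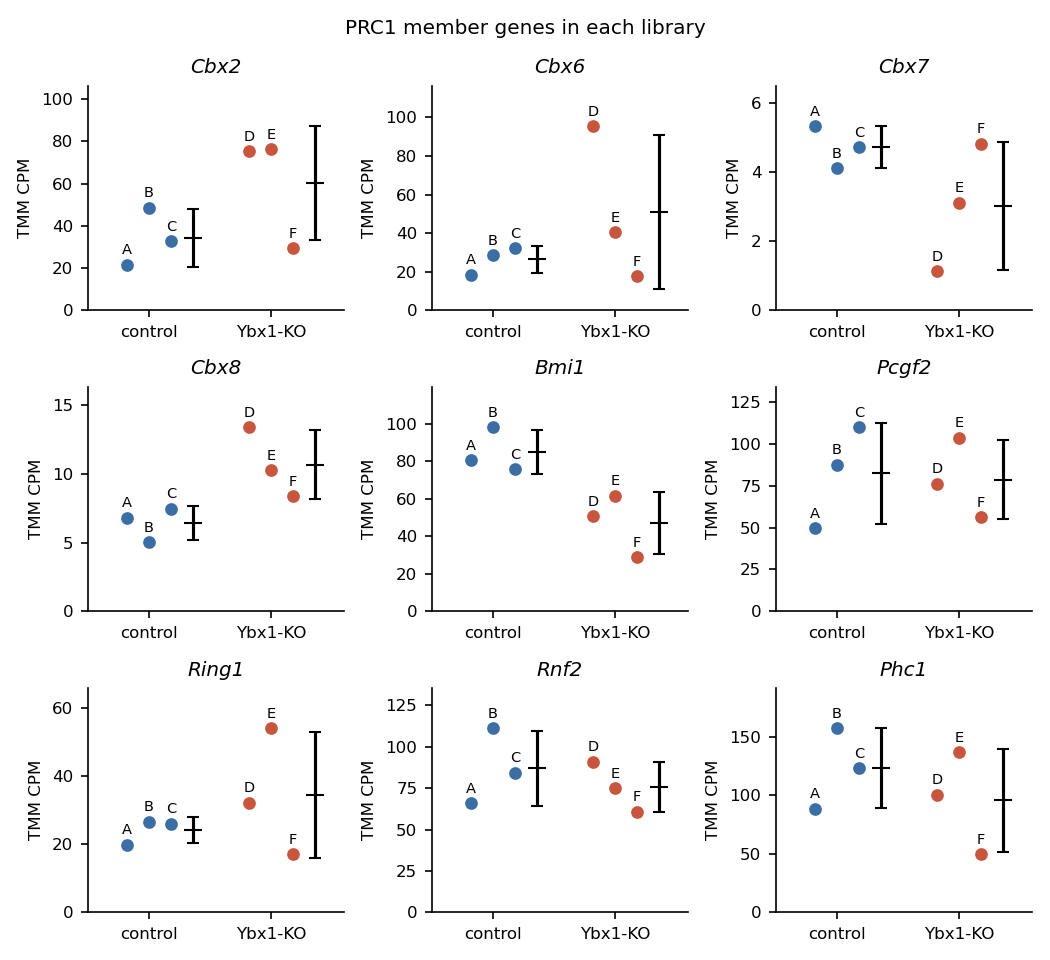
TMM-normalized CPM (vertical axes, each starting at 0) of the 9 PRC1 member genes in the control (blue, A to C) and Ybx1-KO (red, D to F) libraries, with black marks for the mean and SD of each group of 3. The groups are fully apart for Bmi1, with Ybx1-KO at 29.0 to 61.6 against 75.9 to 97.96 CPM, and for Cbx8, at 8.38 to 13.4 against 5.05 to 7.47 CPM.

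The promoters of Bmi1 and Cbx8, the members whose groups did not overlap, are shown as RefSeq gives them on GRCm38.p6, each as 300 bases on the gene's own strand, with 250 bases before the start site and 50 after it. Capitals mark the CCAAT box on either strand (CCAAT or ATTGG), the letters for which Y-box proteins were named.
Bmi1, chr2:18676768-18677067, plus strand: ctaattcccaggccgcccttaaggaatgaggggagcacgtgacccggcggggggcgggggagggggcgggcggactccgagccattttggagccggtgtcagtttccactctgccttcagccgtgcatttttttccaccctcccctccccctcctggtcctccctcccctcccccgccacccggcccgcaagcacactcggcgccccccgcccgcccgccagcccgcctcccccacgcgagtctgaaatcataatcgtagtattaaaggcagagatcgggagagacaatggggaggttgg
Cbx8, chr11:119040864-119041163, minus strand: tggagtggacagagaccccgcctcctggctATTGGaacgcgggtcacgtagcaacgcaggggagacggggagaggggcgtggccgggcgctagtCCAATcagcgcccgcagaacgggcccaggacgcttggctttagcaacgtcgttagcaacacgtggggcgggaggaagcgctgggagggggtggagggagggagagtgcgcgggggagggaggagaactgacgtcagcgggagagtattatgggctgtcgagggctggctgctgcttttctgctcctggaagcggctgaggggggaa
The Cbx8 window held these letters at 2 places, ATTGG beginning 220 bases and CCAAT beginning 156 bases before the start site, while the Bmi1 window held neither. Of the 8 members with a promoter in that set, 2 had a match, the other being Cbx7 with CCAAT 190 bases before its RefSeq start. That Cbx7 window (chr15:79932597-79932896, minus strand) lies inside the gene as GENCODE M21 gives it, which starts at 79971119. Of 32851 windows of the same length, 37.4% had at least 1 match. The windows differed in CpG content, with a median of 27 CpG dinucleotides in the members against 7 in all windows. Phc1 with 9 and Pcgf2 with 10 were near that of all windows, and the other 6 held between 23 in Bmi1 and 37 in Ring1. Like that of Cbx7, the windows of Phc1 (chr6:122340178-122340477), Pcgf2 (chr11:97699599-97699898) and Cbx6 (chr15:79834284-79834583) lie inside their GENCODE M21 genes. Those genes start at 122340561, 97700497 and 79834688 on the minus strand. The low CpG counts of Phc1 and Pcgf2 may thus not describe their GENCODE start sites.

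Among the chromobox subunits, which bring canonical PRC1 to H3K27me3, Cbx8 had 6.81, 5.05 and 7.47 TMM CPM in control A, B and C against 13.4, 10.3 and 8.38 TMM CPM in Ybx1-KO libraries D to F, in that order. All 3 Ybx1-KO values lay above all 3 control values, and they did so with scaling by total counts alone too. The means were 6.44 ± 1.25 and 10.7 ± 2.52 TMM CPM (SD, n = 3 each; exact two-sided permutation p = 0.1, which is the lowest that 3 against 3 can give). In edgeR the log2 fold change of Cbx8 came to 0.73 (SE 0.526, adjusted p = 0.523), and to 0.85 without library F. These values rest on 59 to 147 counts per library.

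Cbx2, a chromobox subunit that compacts chromatin, stood at 21.5, 48.6 and 32.7 TMM CPM in control and at 75.2, 76.2 and 29.4 TMM CPM in Ybx1-KO. After TMM, libraries D and E lay above all controls and F within the control range, so the groups overlapped (means 34.3 ± 13.6 and 60.3 ± 26.7, SD, n = 3 each; exact permutation p = 0.3). Its log2 fold change of 0.81 (SE 0.441, adjusted p = 0.451) missed the threshold. With scaling by total counts alone the groups did not overlap, at 21.5, 43.5 and 29.8 CPM against 78.2, 55.1 and 43.6 CPM, though control B and library F were close, and the unadjusted p was 0.0341 (adjusted p = 0.447). It was 1.13 without library F, with an unadjusted p of 0.0114 and an adjusted p of 0.269.

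Cbx6, a less studied chromobox subunit, had 18.6, 28.6 and 32.2 TMM CPM in control and 95.2, 40.5 and 17.8 TMM CPM in Ybx1-KO. The Ybx1-KO libraries lay on both sides of the controls, with D far above and F, after TMM, below all of them (means 26.5 ± 7.07 and 51.2 ± 39.8, SD, n = 3 each; exact permutation p = 0.5). Its log2 fold change of 0.95 (SE 0.5003, adjusted p = 0.450) was 0.14 without library D and 1.35 without library F, where the unadjusted p was 0.00537 and the adjusted p 0.206. Cbx6 shares 563 exonic bases with Npcd on the same strand, so its counts are uncertain.

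Cbx7, which holds the Cdkn2a locus silent in several cell types, was the lowest of the members. It had 111, 88 and 93 counts in the controls and 10, 30 and 34 counts in the shallower Ybx1-KO libraries, or 5.32, 4.12 and 4.73 TMM CPM against 1.13, 3.12 and 4.83 TMM CPM. Libraries D and E lay below every control and library F between the controls A and C (exact permutation p = 0.3), and with total counts alone F lay above every control, at 7.17 CPM. With mean FPKM values of 0.684 and 0.545 it was not tested. In the fits whose filter it passed, its log2 fold change was -0.84 with no filter and -0.54 with CPM above 1 in at least 3 libraries, and the adjusted p was at least 0.713. Cbx7 shares 100 exonic bases with Apobec3 on the opposite strand.

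These 4 genes lie in pairs on the chromosomes in GENCODE M21 (GRCm38). Cbx2 (chromosome 11 from 119022962 to 119031270, plus strand) and Cbx8 (from 119036305 to 119040969, minus strand) are 5.034 kb apart. Cbx6 (chromosome 15 from 79823896 to 79834688, minus strand) and Cbx7 (from 79915807 to 79971119, minus strand) are 81.1 kb apart. Within the first pair both log2 fold changes were positive. Over the 6 libraries neither gene of that pair was the member most like the other. The most like was Ring1 for Cbx2 (Pearson r = 0.847) and Cbx6 for Cbx8 (0.709). The values of Cbx6 and Cbx7 ran opposite to each other, with library D the highest for Cbx6 and the lowest for Cbx7 (r = -0.95). Each r is given as a description, since the libraries share differences in depth and library F.

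Bmi1 (chromosome 2 from 18677018 to 18686629, plus strand), the PCGF subunit tied to neural stem cell self-renewal, had 80.4, 97.96 and 75.9 TMM CPM in control and 50.6, 61.6 and 29.0 TMM CPM in Ybx1-KO. All 3 controls exceeded all 3 Ybx1-KO libraries, and this held with scaling by total counts alone. The means were 84.7 ± 11.7 and 47.0 ± 16.6 TMM CPM (SD, n = 3 each; exact two-sided permutation p = 0.1, the lowest possible). For Bmi1 edgeR gave a log2 fold change of -0.85 (SE 0.392, unadjusted p = 0.0456, adjusted p = 0.444), and -0.62 without library F. Its unadjusted p ran from 0.0205 to 0.13 over 13 other settings. Between 204 and 2093 counts per library lie behind it. In such bulk samples fewer cells with a transcript and less of it per cell cannot be told apart.

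Pcgf2 (chromosome 11 from 97688823 to 97700497, minus strand), the paralogue that can take the place of Bmi1 in canonical PRC1, had 49.7, 87.6 and 109.7 TMM CPM in control and 76.1, 103.5 and 56.3 TMM CPM in Ybx1-KO. All 3 Ybx1-KO values fell inside the control range. Its log2 fold change was -0.066 (SE 0.412, adjusted p = 0.953), and 0.10 without library F.

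Set against each other within a library, which removes any scaling between libraries, the ratio of Bmi1 to Pcgf2 (counts per kilobase of exon) was 1.43, 0.993 and 0.614 in the controls and 0.590, 0.528 and 0.457 in the Ybx1-KO libraries. The groups were apart by a narrow margin, between control C and Ybx1-KO D, and the control libraries differed among themselves by more than the Ybx1-KO libraries did. On the log2 scale the mean was -0.065 ± 0.614 in control and -0.94 ± 0.184 in Ybx1-KO (SD, n = 3 each), a difference of -0.87 (exact two-sided permutation p = 0.1, the lowest possible). Without library F the difference was -0.78.

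Ring1 and Rnf2 encode the alternative ubiquitin ligases of the complex. Ring1 (chromosome 17 from 34020792 to 34024680, minus strand) had 19.9, 26.7 and 26.1 TMM CPM in control and 32.2, 54.0 and 17.1 TMM CPM in Ybx1-KO. After TMM, libraries D and E lay above the controls and library F below them (exact permutation p = 0.5). With total counts alone all 3 Ybx1-KO libraries lay above the controls, at 33.5, 39.03 and 25.3 CPM against 19.9, 23.9 and 23.8 CPM. Ring1 thus had a log2 fold change of 0.51 (SE 0.428, adjusted p = 0.576), which was 0.026 without library E and 0.80 without library F.

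Rnf2 (chromosome 1 from 151458004 to 151500955, minus strand), the ligase that early development depends on, had 66.0, 111 and 84.3 TMM CPM in control and 90.9, 75.1 and 60.7 TMM CPM in Ybx1-KO. The groups overlapped widely, with a log2 fold change of -0.20 (SE 0.383, adjusted p = 0.812), and -0.084 without library F. Rnf2 shares 158 exonic bases with Trmt1l on the opposite strand. In every library Ring1 stood below Rnf2 per kilobase of exon, with ratios of 0.384, 0.306 and 0.394 in control and 0.451, 0.915 and 0.358 in Ybx1-KO. The log2 ratio differed by 0.56 between the genotypes (two-sided exact permutation test, p = 0.3), mostly through library E, without which it differed by 0.16.

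Phc1 (chromosome 6 from 122317731 to 122340561, minus strand), the polyhomeotic member, had 88.7, 157 and 123.6 TMM CPM in control and 100.6, 137 and 49.6 TMM CPM in Ybx1-KO. Libraries D and E lay inside the control range and library F below it. A log2 fold change of -0.36 (SE 0.439, adjusted p = 0.705) resulted for Phc1, and -0.073 without library F.

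Levels were compared between genes per kilobase of exon (TMM CPM per kb, mean of 3 libraries). In control NPCs the order was Pcgf2 at 23.4, Phc1 at 23.3, Bmi1 at 21.3 and Rnf2 at 21.1, then Cbx2 at 8.05 and Ring1 at 7.47, then Cbx6 at 2.49 and Cbx8 at 1.75, and last Cbx7 at 0.728. The ranges of neighbours in this order were apart between Rnf2 and Cbx2, between Ring1 and Cbx6 and between Cbx8 and Cbx7, and overlapped elsewhere. In Ybx1-KO NPCs it ran from Pcgf2 at 22.3 over Rnf2 at 18.3, Phc1 at 18.1, Cbx2 at 14.2, Bmi1 at 11.8, Ring1 at 10.6, Cbx6 at 4.82 and Cbx8 at 2.91 to Cbx7 at 0.467. Among neighbours in that order only Cbx8 and Cbx7 had ranges that did not overlap. Within libraries, Phc1 exceeded Cbx2 and Ring1 exceeded Cbx6 in all 3 Ybx1-KO libraries. Bmi1 exceeded Ring1 in 2 of 3 and could not be set apart from it or from Cbx2. Read per kilobase, Bmi1 exceeded Cbx2 in all 3 control libraries, whereas Cbx2 exceeded Bmi1 in 2 of 3 Ybx1-KO libraries.

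Among the chromobox members, Cbx2 made up the largest share of the 4 genes' summed counts per kilobase in every library, at 53.3, 70.8 and 57.0% in control and 58.0, 71.6 and 59.5% in Ybx1-KO. The Cbx7 share was 8.66, 3.94 and 5.40% in control and 0.574, 1.92 and 6.41% in Ybx1-KO, where library F again lay within the control range. Cbx2 and Cbx8 together held 74.8 ± 3.98% in control and 77.3 ± 6.63% in Ybx1-KO (SD, n = 3 each; two-sided exact permutation test, p = 0.7). Those shares overlapped, at 72.9, 79.3 and 72.1% against 69.9, 82.8 and 79.2%.

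**Figure D2:**
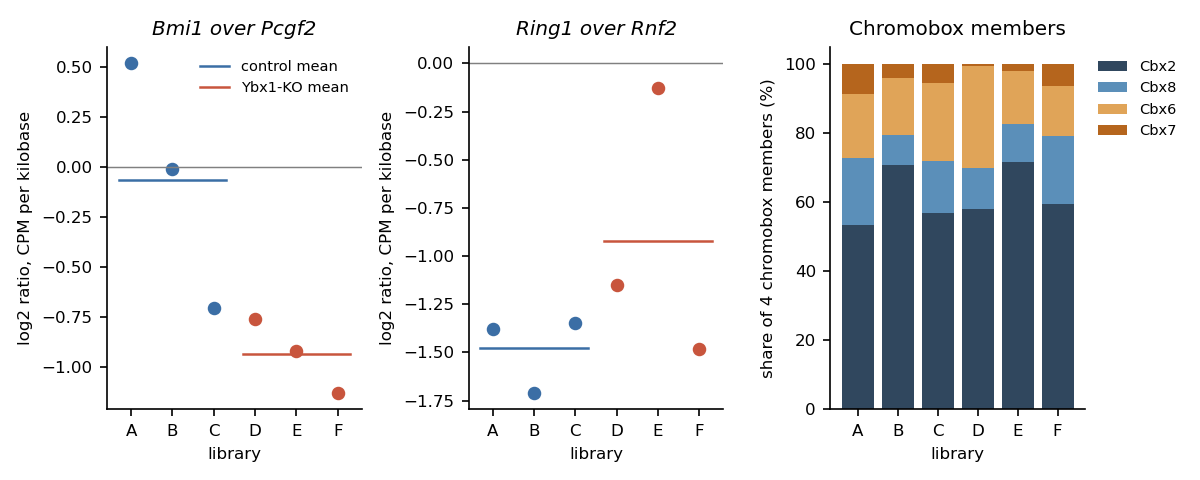
Values taken within each library: the log2 ratio of Bmi1 to Pcgf2 and of Ring1 to Rnf2 in CPM per kilobase (points, with lines for the group means of control in blue and Ybx1-KO in red), and the share of each chromobox member in the sum of the 4 in percent (stacked bars). The Bmi1 to Pcgf2 ratio is lower in all 3 Ybx1-KO libraries, with means of -0.065 and -0.94, the Ring1 to Rnf2 ratio is highest in library E, and Cbx2 fills 53.3 to 71.6% of every bar.

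Other PRC1 genes were read from the same fit. Of 5 further subunits of canonical PRC1, 3 were tested (Phc2, Phc3 and Scmh1), of which 1 had a positive and 2 a negative log2 fold change, between -0.36 and 0.36, and 0 were called. Of 22 subunits of variant PRC1, 21 were tested, 9 positive and 12 negative, with a median of -0.078 and 0 called.

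Over both lists, 0 of 24 tested genes reached an unadjusted p below 0.05, against 6.96% higher and 4.26% lower among all tested genes. The groups did not overlap in 1, E2f6, which was higher in Ybx1-KO, against 4.99% higher and 8.16% lower among all tested genes. E2f6, the DNA-binding subunit of a PRC1 variant, had 34.8, 37.8 and 28.4 TMM CPM in control and 46.4, 40.7 and 40.1 TMM CPM in Ybx1-KO, and its log2 fold change was 0.33 (adjusted p = 0.665). With scaling by total counts alone its groups overlapped, while those of Bcorl1 and Fbrs, which overlap under TMM, were apart and higher in Ybx1-KO.

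**Figure D3:**
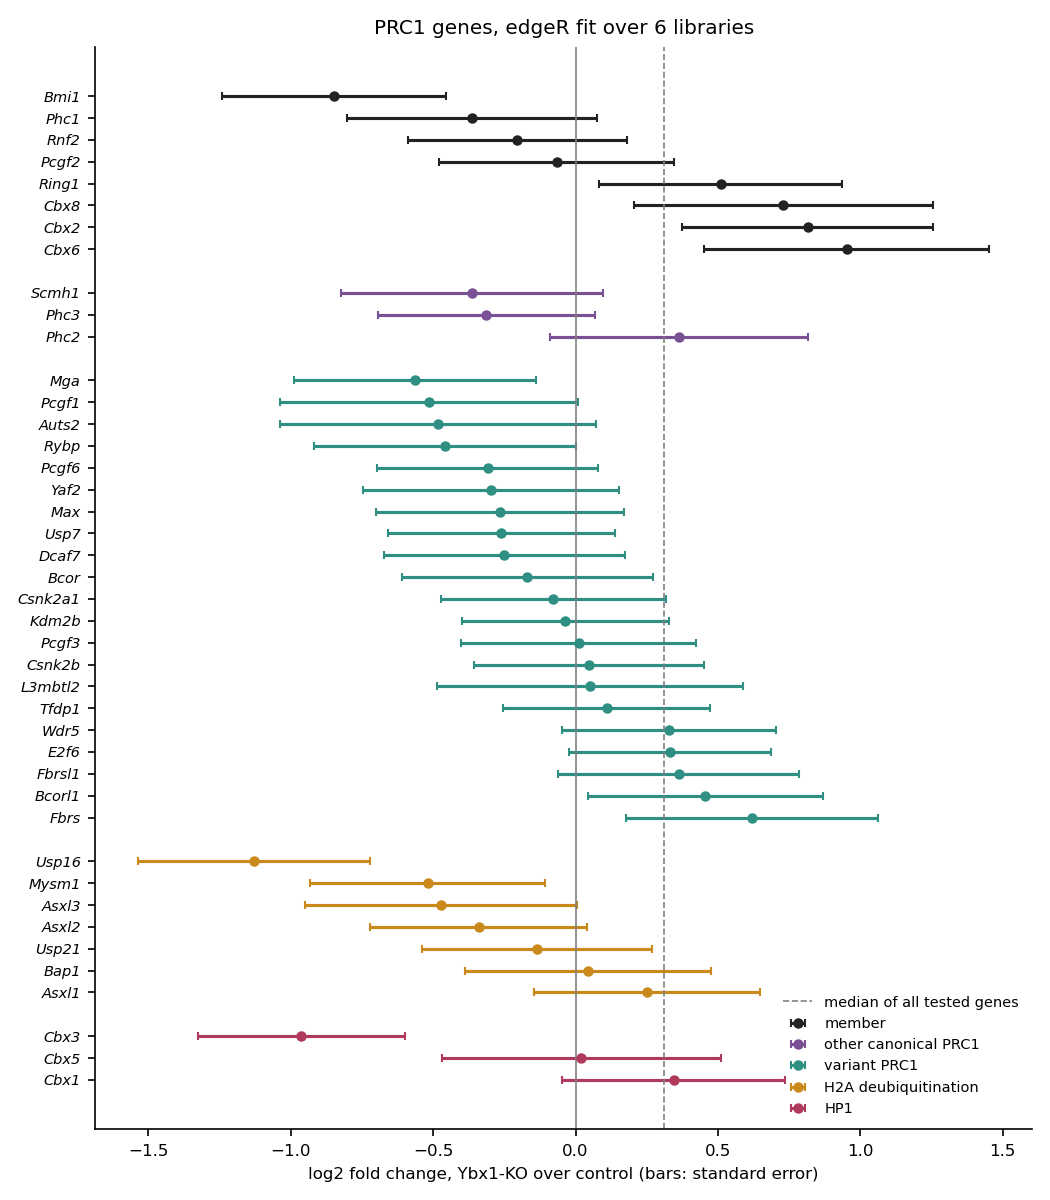
Log2 fold changes of Ybx1-KO over control from edgeR (points) with their standard errors (bars) for the tested PRC1 members, other subunits of canonical and variant PRC1, H2A deubiquitinases with their partners, and HP1 genes, with a dashed line at the median of all tested genes (0.31). The members spread from -0.85 for Bmi1 to 0.95 for Cbx6, the other canonical subunits from -0.36 to 0.36 and the variant subunits from -0.56 to 0.62, and 0 of the genes plotted were called.

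The enzymes that take ubiquitin off H2A, with their Asxl partners, were 7 genes, all tested. Of these 2 were positive and 5 negative. Only 1, Usp16, had an unadjusted p below 0.05, and it was also the 1 without overlap. It was lower in Ybx1-KO, as were 4.26% of all tested genes at that p and 8.16% without overlap. Usp16, an H2A deubiquitinase, had 77.2, 68.0 and 40.3 TMM CPM in control and 17.9, 37.2 and 29.7 TMM CPM in Ybx1-KO. All Ybx1-KO values lay below the controls, though control C was close to library E, and with scaling by total counts alone the groups overlapped. Its log2 fold change was -1.13 (SE 0.408, unadjusted p = 0.0134, adjusted p = 0.426). Usp16 shares 192 exonic bases with Cct8 on the opposite strand.

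The HP1 genes Cbx1, Cbx3 and Cbx5 are chromobox genes outside Polycomb, whose proteins read H3K9 methylation. Cbx3 (HP1 gamma) had 90.3, 97.9 and 75.5 TMM CPM in control and 42.5, 48.3 and 44.5 TMM CPM in Ybx1-KO. The groups did not overlap under TMM, where the Ybx1-KO libraries were close to one another. With scaling by total counts alone Cbx3 was at 90.3, 87.6 and 68.9 CPM against 44.2, 34.9 and 66.0 CPM. The groups were still apart there, though control C and library F were close. Cbx3 counts in Ybx1-KO thus varied more under that scaling. Cbx3 had a log2 fold change of -0.96 (SE 0.362, unadjusted p = 0.0168, adjusted p = 0.432), and its counts are uncertain because processed pseudogenes of it are in the same tables. Cbx1 (HP1 beta), at 100.02, 117 and 110.2 against 180.2, 110.6 and 124.9 TMM CPM, had a log2 fold change of 0.34 (adjusted p = 0.685). Cbx5 (HP1 alpha), at 406, 717 and 339 against 595, 558 and 329 TMM CPM, had one of 0.020 (adjusted p = 0.990), whose sign differed in 5 of 13 other settings.

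Cdkn2a and Cdkn2b, the classic genes held silent by Bmi1 and Cbx7, were below the filter. Cdkn2a had 0 counts in all controls and in Ybx1-KO library D, 1 count in library E and 11 counts in library F, the library with 4691 CPM on receptor genes. For Cdkn2b there were 5, 2 and 0 counts in control and 2, 8 and 0 counts in Ybx1-KO. A count of 0 allows a level of up to 3 counts in that library.

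The genes most like 8 of the members over the 6 libraries (highest Pearson r of log2 TMM CPM among 11737 other tested genes, or 11738 for Cbx7, with a mean of at least 5 CPM) were Slc29a3 for Cbx2 (r = 0.998), Laptm4b for Cbx6 (0.996), Fut8 for Cbx7 (0.996) and Clic1 for Cbx8 (0.991). They were Tmem41b for Bmi1 (0.997), Ppp2r2c for Pcgf2 (0.993), Lsm14a for Rnf2 (0.992) and Nol4l for Phc1 (0.993). The 6 points share depth and library F, and the values are descriptions only. Between the members, the highest values were 0.847 for Cbx2 with Ring1 and 0.839 for Bmi1 with Phc1, the lowest -0.951 for Cbx6 with Cbx7, and 25 of 36 pairs had a positive r, with a median of 0.419.

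The direction of the members was read again under 13 other settings, among them limma-voom, DESeq2, other scalings, other filters and the removal of each library. Cbx2 stayed between 0.57 and 1.15, Cbx8 between 0.53 and 0.91 and Bmi1 between -1.09 and -0.62. Cbx6, Ring1 and Phc1 kept their sign but came near 0 without a single library, Cbx6 at 0.14 without D, Ring1 at 0.026 without E and Phc1 at -0.073 without F. Pcgf2 changed sign in 7 and Rnf2 in 2 of the 13 settings. None of the members was called in any of them, and between 0 and 3 of them had an unadjusted p below 0.05.

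**Figure D4:**
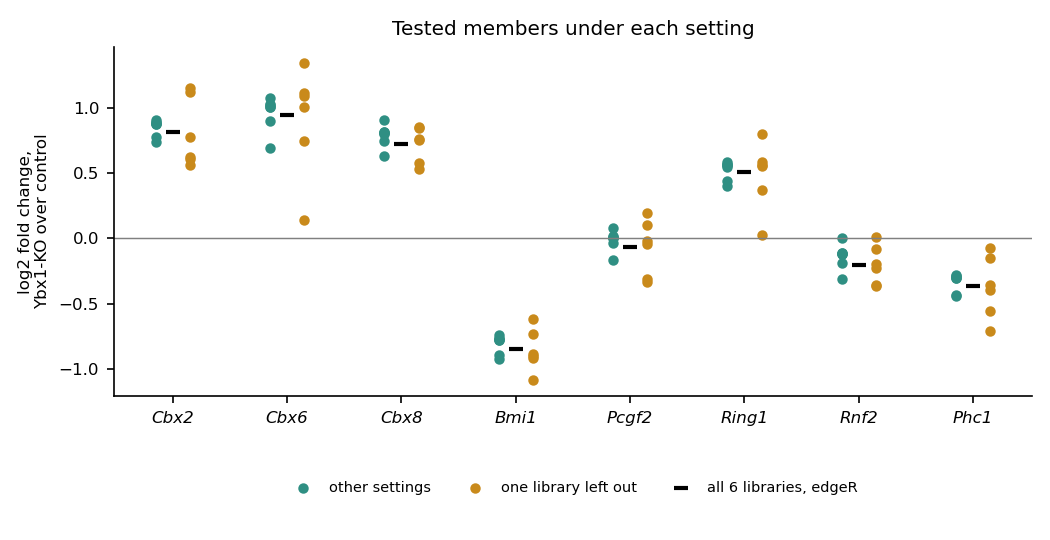
Log2 fold change of Ybx1-KO over control (vertical axis) of the 8 tested members in edgeR with all 6 libraries (black), under 7 other settings (green) and with one library left out (yellow). Cbx2 and Cbx8 stay above 0 and Bmi1 below 0 throughout, and the largest single move is that of Cbx6 without library D, from 0.95 to 0.14.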

How the data were processed

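Counts per gene symbol were deposited by the authors, 1 table per library, as raw whole numbers without normalization. Read pairs of stranded total RNA libraries were counted with HTSeq 0.6.1p1 and, per the submitters' processing notes, on mm10 and GRCm38.p5. The aligner, the strand setting of the counting and the sequencer of each library are not given in the sources used here, so no batch of sequencing was testable and overlapping genes are uncertain.

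Exon lengths (union per gene) and positions came from GENCODE M21. Names in the tables matched the annotation directly for 47624 of 51733 symbols and through older names for 360, which left 3749 without a length. Genes whose mean FPKM exceeded 1 in control or Ybx1-KO (21330) were normalized by TMM, whose factors ran from 0.727 in E to 1.57 in F, and compared over all 6 libraries, without a covariate, in edgeR 4.0.16 (R 4.3.3) by the quasi-likelihood test with Benjamini-Hochberg adjustment over all tested genes. A call needed both an adjusted p under 0.05 and more than a 1.5-fold change. The common coefficient of biological variation was 0.800. Single values were compared with two-sided exact permutation tests (scipy 1.17.1), and correlations used log2 of CPM plus 0.5. The alternatives were limma-voom (limma 3.58.1), DESeq2 1.42.0, RLE factors, total counts, other filters, protein-coding genes alone and leaving out each library. Letters A to F name replicates 1 to 3 of each group in accession order.

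The members and gene lists were chosen with earlier results of these data known. By rule, all members were named, and of other lists the genes with an unadjusted p below 0.05 or without overlap, at most 6 a list, with every gene of lists of up to 3, and the gene most like each member. The tested canonical subunits outside the members were named outside that rule. A few items that meet it are not reported here.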

Additional observations from a re-analysis of the deposited data

How the results depend on the processing

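No paired analysis was possible because the titles of both groups share at most 1 number and no label ties it to a pair. The number of genes called among all tested genes was 0 and became 214 with DESeq2 and 193 with no filter on low counts, while leaving out 1 library at a time gave 0 to 420, with 71 without control B, 107 without Ybx1-KO D, 420 without E and 46 without F. The cause was not tested. The number of PRC1 members called remained 0 in all 13 settings, while their median log2 fold change ran from -0.087 without library E to 0.45 without library F. The log2 fold change of Pcgf2 changed sign to 0.0050 with DESeq2, 0.0049 with RLE factors, 0.078 with total counts only, 0.016 with CPM above 1 in 3 libraries and 0.014 with protein-coding genes alone, and it ran from -0.34 to 0.20 without 1 library. That of Rnf2 was 0.00082 with total counts only and ran from -0.37 to 0.0087 without 1 library. The combined share of Cbx2 and Cbx8 (Ybx1-KO minus control, in percentage points) ran from -0.215 without library E to 6.22 without library D, around 2.54 with all libraries. The Bmi1 to Pcgf2 difference ran from -1.19 to -0.58 and that of Ring1 to Rnf2 from 0.16 to 0.84 with 1 library left out. The median log2 fold change of all genes itself moved, from 0.31 to 0.70 with no filter, 0.53 with total counts only and -0.066 without library F. Usp16 ran from -1.38 to -0.89, Cbx3 from -1.09 to -0.74 and E2f6 from 0.21 to 0.56. The number of members higher in Ybx1-KO without overlap rose from 1 to 3 with total counts only, an alternative chosen after seeing the data. With 3 libraries a group, exact tests cannot go below p = 0.1.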
